A study of Mus musculus with 8 samples.

Results

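The 8 genes described here encode transcription factors that set the identity of a hepatocyte, Hnf4a, Foxa1, Foxa2, Foxa3, Cebpa, Cebpb, Nr1h4 and Onecut1. They were chosen by symbol from 55401 genes, in RNA-seq of AML12 cells, a non-tumour hepatocyte line established from the liver of a mouse that carried a human transforming growth factor alpha transgene. The 4 control dishes were incubated with the field generator off, and the 4 exposed dishes were incubated for 1 h under Opti-ELF-WMF, a magnetic field of 100 mG peak intensity given in 4 ms pulses at 1 to 8 Hz. Both conditions came from a single batch of the same line, grown in the same serum-containing medium with dexamethasone, insulin, transferrin and selenite, and stood between copper plates, but in separate incubators, so exposure and incubator cannot be told apart. Each dish gave 1 table of TPM, a transcript abundance that is corrected for gene length and scaled to the same total in every sample. TPM keeps no sequencing depth, so the counting error of each value is unknown. The p-values below set each difference against the spread between these dishes, moderated by limma over all tested genes. They do not reach beyond this single batch of cells.

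Hepatocyte identity is held by a small circuit of DNA-binding proteins that switch on each other's genes as well as the genes for plasma proteins, bile acid handling and intermediary metabolism. FOXA proteins open closed chromatin in liver development, HNF4A is the nuclear receptor on which most hepatocyte-specific expression depends, and C/EBP factors drive metabolic and acute-phase genes. Nr1h4 encodes FXR, the nuclear receptor that senses bile acids, and Onecut1 encodes HNF6, which acts early in liver and biliary development.

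All 8 genes were detected in every dish, and all 8 passed the abundance filter (TPM of at least 1 in at least 4 dishes), as did 12122 genes in all. In control dishes their levels ran from a mean of 2.06 TPM for Foxa1 to 187 TPM for Hnf4a. After 1 h of Opti-ELF-WMF limma gave an adjusted p under 0.05 for 0 of the 8 and for 0.0% of the 12122 tested genes. The unadjusted p was under 0.05 for 1 of the 8, Nr1h4, and for 15.6% of all tested genes (12.0% higher and 3.65% lower in exposed dishes). Hnf4a, Nr1h4, Foxa2 and Foxa3 had higher means in exposed dishes and Cebpb, Cebpa, Onecut1 and Foxa1 lower ones, with log2 differences between -0.23 and 0.08. In bulk RNA, fewer cells that carry a transcript and less transcript per cell cannot be told apart.

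Hnf4a lies on chromosome 2 from 163506808 to 163572910 (GRCm38, plus strand) and has separate start sites, so that the deposited gene-level value adds the transcripts of both. The sequences upstream of these starts are shown because the value pools them. The windows cover the 250 bases before each RefSeq start of GRCm38.p6, and bases that GENCODE annotates as untranslated region are left out of what is printed. They are chr2:163506607-163506807 and chr2:163546905-163547154, 5′ to 3′ on the plus strand. Capitals mark ATTGATT (read on either strand), the core that ONECUT proteins bind, in the upstream window, and GTTAAT, a half-site of the HNF1 factors, in the downstream window.
Hnf4a upstream start: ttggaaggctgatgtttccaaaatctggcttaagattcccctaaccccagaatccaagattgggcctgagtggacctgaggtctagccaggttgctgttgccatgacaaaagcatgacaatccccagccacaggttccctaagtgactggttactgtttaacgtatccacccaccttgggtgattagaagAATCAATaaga
Hnf4a downstream start: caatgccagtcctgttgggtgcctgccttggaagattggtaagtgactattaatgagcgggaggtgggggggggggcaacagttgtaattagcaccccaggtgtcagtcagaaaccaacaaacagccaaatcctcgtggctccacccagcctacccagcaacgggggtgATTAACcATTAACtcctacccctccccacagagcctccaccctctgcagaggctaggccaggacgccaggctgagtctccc
The ONECUT letters began 60 bases before the upstream RefSeq start, a distance that includes the 49 bases left out of the printed window. The 2 HNF1 half-sites began 81 and 74 bases before the downstream start. ATTGATT was found in 2.61% of 32851 promoter windows of the same length and GTTAAT in 6.43%. Among the 11 windows of the 8 genes, ATTGATT was in 2 (Hnf4a and Foxa2) and GTTAAT in 3 (Hnf4a, Foxa2 and Nr1h4). These are matches of letters only, and no binding was measured here.

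Foxa1, on chromosome 12 from 57540628 to 57546916, is shown because its window alone among the 11 held TGTTTAC, the core FOXA sequence, which 3.17% of all windows held. The match (capitals, reverse strand) began 141 bases before the start in chr12:57546122-57546361 of GRCm38.p6, printed 5′ to 3′ on the minus strand. This RefSeq start lies inside the GENCODE gene span, and the distance of 141 bases includes 10 bases left out of the printed window.
Foxa1: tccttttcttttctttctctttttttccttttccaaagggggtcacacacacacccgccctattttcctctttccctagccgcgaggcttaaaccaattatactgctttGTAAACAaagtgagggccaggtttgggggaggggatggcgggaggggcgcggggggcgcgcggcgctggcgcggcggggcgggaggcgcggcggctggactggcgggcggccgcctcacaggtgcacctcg
Cebpa, on chromosome 7 from 35119293 to 35121928, is shown for its TATA box. Its window, chr7:35119043-35119292 on the plus strand, held TATAAA (capitals) beginning 30 bases before the start. At any position and on either strand, 12.4% of all windows held TATAAA.
Cebpa: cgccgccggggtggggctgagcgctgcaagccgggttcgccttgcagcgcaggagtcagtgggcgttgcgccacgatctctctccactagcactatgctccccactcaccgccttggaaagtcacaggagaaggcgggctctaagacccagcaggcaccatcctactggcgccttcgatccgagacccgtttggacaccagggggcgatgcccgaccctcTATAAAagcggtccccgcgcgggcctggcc
TATAAA was also found in windows of Foxa2 and Foxa3. GGGCGG, a GC box, was in 7 of the 11 windows and 32.7% of all windows, and CCAAT in 5 of the 11 and 33.8% of all. None of the 11 windows held CAAAGTCCA, a form of the HNF4 site (0.384% of all windows), or TTGCGCAA, the C/EBP palindrome (0.164%). In the printed windows the marked matches did not overlap each other or a match of another of these motifs. The window of Cebpb had 81.6% G and C, against a median of 52.4% over all windows, and that of Nr1h4 had 44.4%. The Nr1h4 window, chr10:89506659-89506908, lies inside the GENCODE gene span, as do further windows of Foxa2, so they precede internal starts.

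The 8 genes differed in position and structure. Foxa2 (from 148042877 to 148046969), Hnf4a and Cebpb (from 167688915 to 167690418) lie on chromosome 2, Cebpa and Foxa3 (from 19013284 to 19023538) on chromosome 7, Onecut1 (from 74861921 to 74891781) on chromosome 9 and Nr1h4 (from 89454234 to 89533585) on chromosome 10. Cebpb has 1 annotated transcript with a single exon, whereas Hnf4a has 5 and Nr1h4 has 3 transcripts with up to 10 exons each. Tmem189 lies on the opposite strand over the start of Cebpb and its exons cover 20.7% of the exonic bases of Cebpb. Tmem189 had 26.8 to 31.5 TPM, about the level of Cebpb itself. The libraries were made with a stranded kit, but the strand setting of the counting is not given in the sources used here, so the value of Cebpb is uncertain to that degree. The antisense genes over Hnf4a (Hnf4aos, at most 0.11 TPM) and Cebpa (Gm45091, at most 0.81 TPM) were low.

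In control dishes Hnf4a was the most abundant of the 8 genes, with 180.3, 186.4, 183.8 and 199.1 TPM in replicates 1 to 4, and lay above 93.7% of the tested genes. Nr1h4 had 157.6, 162.6, 158.6 and 164.6 TPM and lay above 92.5% of them. These 2 nuclear receptors stood apart from the other 6 genes, and every control value of Hnf4a was above every value of Nr1h4, although the means differed only 1.17-fold. Foxa2 followed with 63.9, 58.4, 55.4 and 57.4 TPM, so that Nr1h4 was 2.74-fold above it. Cebpb had 50.5, 40.7, 29.6 and 27.1 TPM, the widest spread among the 8 (coefficient of variation 29.1%). Cebpa had 11.1, 9.01, 8.46 and 8.24 TPM.

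The last 3 genes of the order were low. Onecut1 had 7.23, 7.19, 8.20 and 7.24 TPM in control dishes, Foxa3 4.19, 4.62, 5.03 and 4.58, and Foxa1 2.51, 2.11, 1.72 and 1.90. Foxa1 lay above 8.46% of the tested genes. In the control dishes no neighbours in this order overlapped in range. The closest were Cebpa and Onecut1, whose lowest and highest values were 8.24 and 8.20 TPM. The exposed dishes kept the same order, and there the ranges of Cebpa (7.35 to 8.73 TPM) and Onecut1 (5.95 to 7.39 TPM) overlapped, with the highest Onecut1 dish above the lowest Cebpa dish and Cebpa above Onecut1 within each of the 4 dishes. Between dishes Nr1h4 varied least, with a coefficient of variation of 2.05% in control dishes, and the median over the 8 genes was 7.01% against 5.16% over all tested genes.

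**Figure D1:**
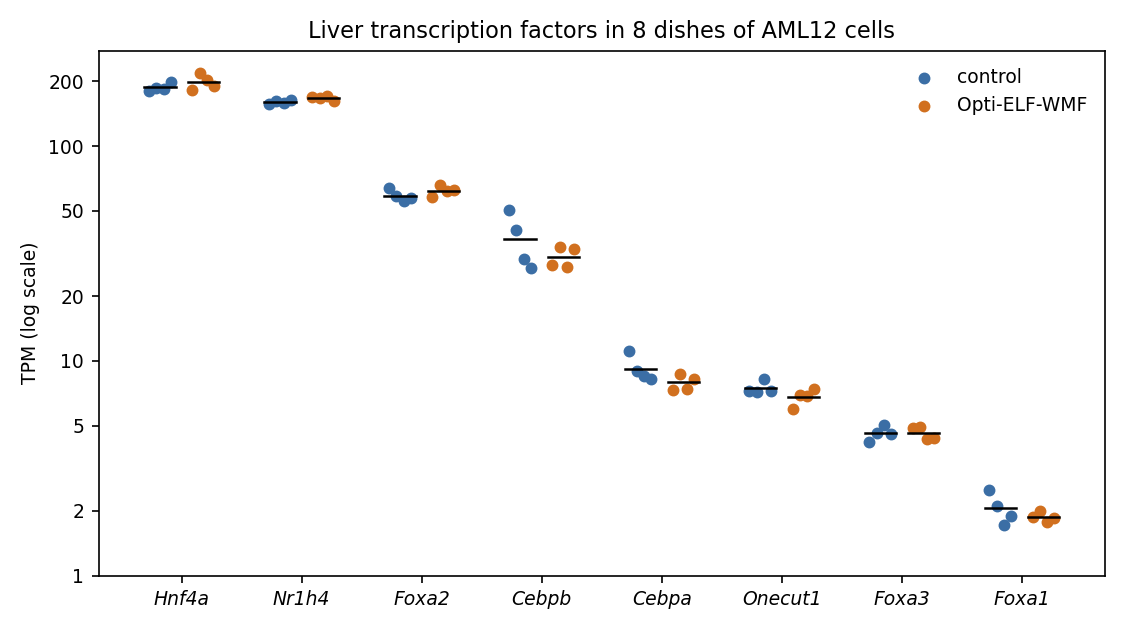
TPM (log axis) of the 8 transcription factors in each of 4 control dishes (blue) and 4 Opti-ELF-WMF dishes (orange), with a black line at the mean of each group and replicates 1 to 4 drawn from left to right. Hnf4a and Nr1h4 sit at 157.6 TPM or higher in every dish, Foxa1 sits between 1.72 and 2.51 TPM, and the groups overlap for each gene.

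Levels of the genes that these factors regulate in liver were set beside them. Of 31 hepatocyte products and enzymes, 14 passed the abundance filter and 17 stayed under 1 TPM in every dish. Krt8 (2248 TPM ± 31.1, SD, n = 4 control dishes) and Krt18 (1905 ± 58.0), the keratin pair of simple epithelia, were the most abundant. Among the hepatocyte markers Ttr, the thyroid hormone carrier transthyretin, had 333.2 to 383.6 TPM and Apob, the protein of very low density lipoprotein, 202.7 to 210.4 TPM in control dishes. Alb, serum albumin, had 52.5 to 58.2 TPM, below Hnf4a on this per-length scale. Of the 12 hepatocyte markers 6 were under 1 TPM in every dish, namely Apoa2, Fgb, Ahsg, Asgr1, Cps1 and Tat. Fgb encodes a fibrinogen chain, Cps1 the entry enzyme of the urea cycle and Tat the first enzyme of tyrosine breakdown. The other 6 passed the filter, and the 12 together summed to 612.3 to 671.9 TPM in control dishes. Such a sum depends on the genes listed. Trf, a hepatocyte product outside the 12, alone had 807.8 to 857.3 TPM in control dishes.

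None of 9 genes through which FXR controls bile acid handling passed the filter. Nr1h4 itself had 157.6 TPM or more in every dish. The 9 include genes that FXR induces and genes that it lowers, and FXR activity was not tested. Nr0b2, which encodes the repressor SHP and is the classical gene induced by FXR, had a mean of 0.80 TPM in control dishes and at most 1.04 TPM in any dish. Slc51b, a subunit of the bile acid exporter OST, had 0.27 to 0.34 TPM in control dishes. Abcb11, the bile salt export pump, stayed at or below 0.11 TPM. Cyp7a1 and Cyp8b1, the bile acid synthesis enzymes that FXR lowers through SHP, were listed at 0 in all 8 dishes. Together the 9 genes summed to between 1.02 and 1.81 TPM in a dish.

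Of 33 other liver transcription factors, 24 passed the filter and 19 had a control mean of at least 10 TPM. Atf5, a leucine zipper factor, and Hhex, a homeobox factor of early liver development, were the most abundant, with 133.0 to 140.8 and 117.1 to 129.6 TPM in control dishes. Of 14 acute-phase genes 7 passed the filter. Lbp, which binds bacterial lipopolysaccharide, had 165.2 to 187.5 TPM and Hpx, the heme carrier hemopexin, 59.2 to 66.2 TPM in control dishes, whereas 6 genes stayed under 1 TPM in every dish. Cebpb and Cebpa are controlled by glucocorticoids in liver, and the medium contained dexamethasone. Every dish had it, so its part in any of the levels given here was not tested. All 9 glucocorticoid-responsive genes passed the filter, led by Mt2, a metallothionein (488.0 to 526.4 TPM), and Fkbp5, a chaperone of the glucocorticoid receptor (266.0 to 283.7 TPM).

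The cells also carried transcripts of the biliary lineage and the cytoskeleton. Of 8 cholangiocyte and progenitor markers 5 passed the filter, among them Krt19 (1101 to 1188 TPM in control dishes), Spp1, Krt7 and Sox9, whereas Epcam and Prom1 stayed at or below 0.13 TPM. The 8 markers summed to 2081 to 2200 TPM in control dishes and 2124 to 2243 TPM in exposed dishes. The 12 hepatocyte markers summed to 612.3 to 671.9 TPM in control dishes and 601.2 to 647.5 TPM in exposed dishes. Of the 6 hepatocyte markers tested, 2 were higher and 4 lower (median -0.09). An unadjusted p under 0.05 (limma) was found for 2 of them, each lower, against 3.65% of all tested genes. Of 11 mesenchymal and stellate markers 3 passed, Vim (vimentin), Cdh2 (N-cadherin) and Tagln, and 7 stayed under 1 TPM in every dish. The sum, which was mostly Vim, was 1425 to 1519 TPM in control dishes and 1505 to 1631 TPM in exposed dishes. Vim was at 1304 to 1401 TPM in control and 1381 to 1509 TPM in exposed dishes (difference 0.11 on the log2(TPM + 1) scale, unadjusted p = 0.00824 and adjusted p = 0.169, limma), and Cdh2 at 113.5 to 117.6 and 119.1 to 127.5 TPM (difference 0.09, unadjusted p = 0.0114 and adjusted p = 0.186, limma). On the deposited TPM, Vim and Cdh2 had an unadjusted p under 0.05, as had 15.6% of all tested genes (12.0% higher in exposed dishes). Lrat, which marks stellate cells, was listed at 0 in every dish. Col1a2, a collagen chain, had 0.37, 0.28 and 0.41 TPM in control replicates 1 to 3 and at most 0.02 TPM in control replicate 4 and the exposed dishes. None of 6 endothelial markers reached 1 TPM (sums of 0 to 0.09 TPM), with Cdh5 and Clec4g listed at 0. Of 7 macrophage markers only Cd68 passed, and Adgre1, Clec4f and Marco were listed at 0. The sum of these 7 was 1.60 to 2.55 TPM in control dishes and 1.63 to 1.95 TPM in exposed dishes. The part that any of these lists has in the values of the 8 factors was not tested.

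**Figure D2:**
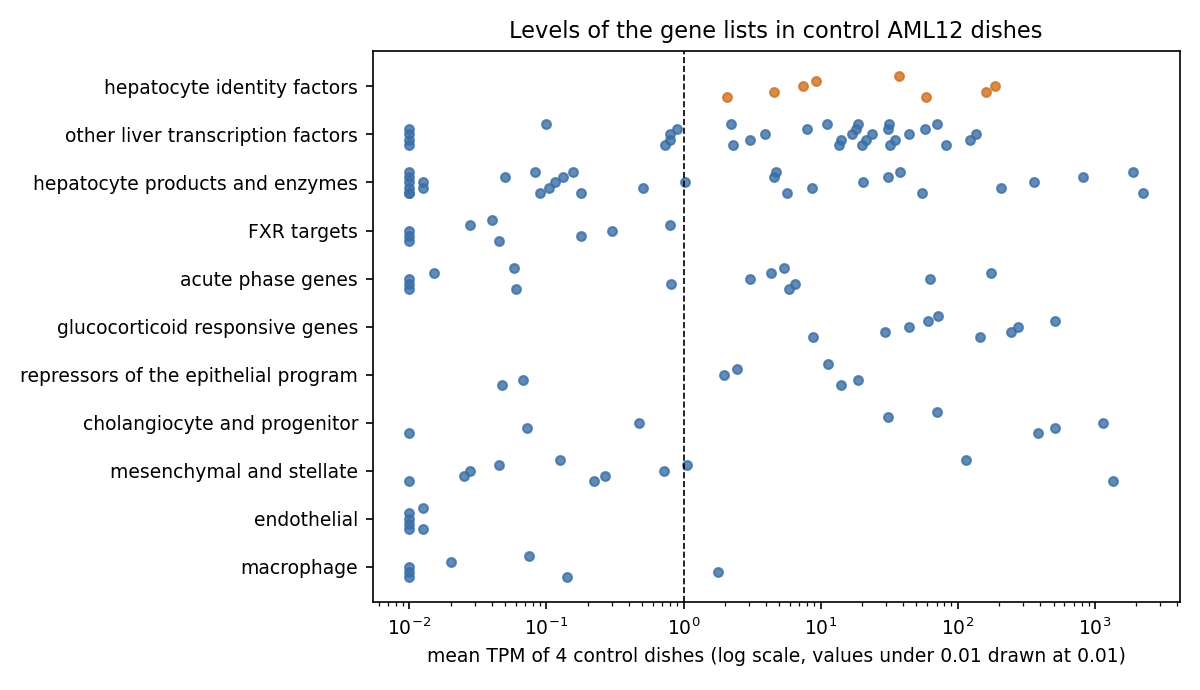
Mean TPM in the 4 control dishes (log axis) for each gene of the lists named at the left, 1 point per gene, with a dashed line at 1 TPM. The 8 hepatocyte identity factors (orange) all lie to the right of the line, all 9 FXR targets lie to its left, and 17 hepatocyte products stayed under 1 TPM in every dish.

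Relatives of the 8 factors bind much the same sequences, so the makeup of each family was compared within dishes, where the scaling of TPM cancels. Of the summed TPM of the 3 FOXA genes, Foxa2 made up 89.8% ± 0.56 without exposure and 90.5% ± 0.63 with it (SD over 4 dishes each). Foxa3 held 7.07% ± 0.88 and 6.78% ± 0.52, and Foxa1 3.13% ± 0.34 and 2.75% ± 0.11. The FOXA pool of these cells was thus mostly Foxa2 in each of the 8 dishes. In the ONECUT family Onecut1 was the smaller part, 18.8% ± 0.87 in control and 17.6% ± 0.92 in exposed dishes, and its paralog Onecut2 held the rest.

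The C/EBP family varied more between dishes. Cebpg, a partner that lacks an activation domain of its own, made up 48.2% ± 8.2 of the summed TPM of Cebpa, Cebpb, Cebpd and Cebpg without exposure and 53.4% ± 2.9 with it. Cebpb held 39.4% ± 7.6 and 35.0% ± 2.4, and Cebpa 9.94% ± 0.72 and 9.10% ± 0.38. Ddit3, a further C/EBP relative with 34.1 to 35.0 TPM in control dishes, was not counted, and every share would be lower with it. Among the control dishes the share of Cebpb was 49.4% in replicate 1, 41.2% in replicate 2, 34.6% in replicate 3 and 32.4% in replicate 4, and the exposed dishes (32.6% to 37.6%) fell within that span. Control replicate 1 had the highest Cebpb, Cebpa, Cebpd (2.54 TPM) and Foxa1 of all control dishes and the lowest Cebpg (38.0 TPM against 45.4 to 46.6 TPM in the other 3). This dish also had the highest Foxa2 (63.9 TPM) and the lowest Hnf4a (180.3 TPM), Nr1h4 (157.6 TPM) and Foxa3 (4.19 TPM) of the control dishes. For each gene of the 3 families the shares in control and exposed dishes overlapped in range. The ratio of Cebpb to Cebpa was 4.54, 4.51, 3.50 and 3.29 in the control dishes and lay between 3.69 and 4.00 in the exposed dishes.

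**Figure D3:**
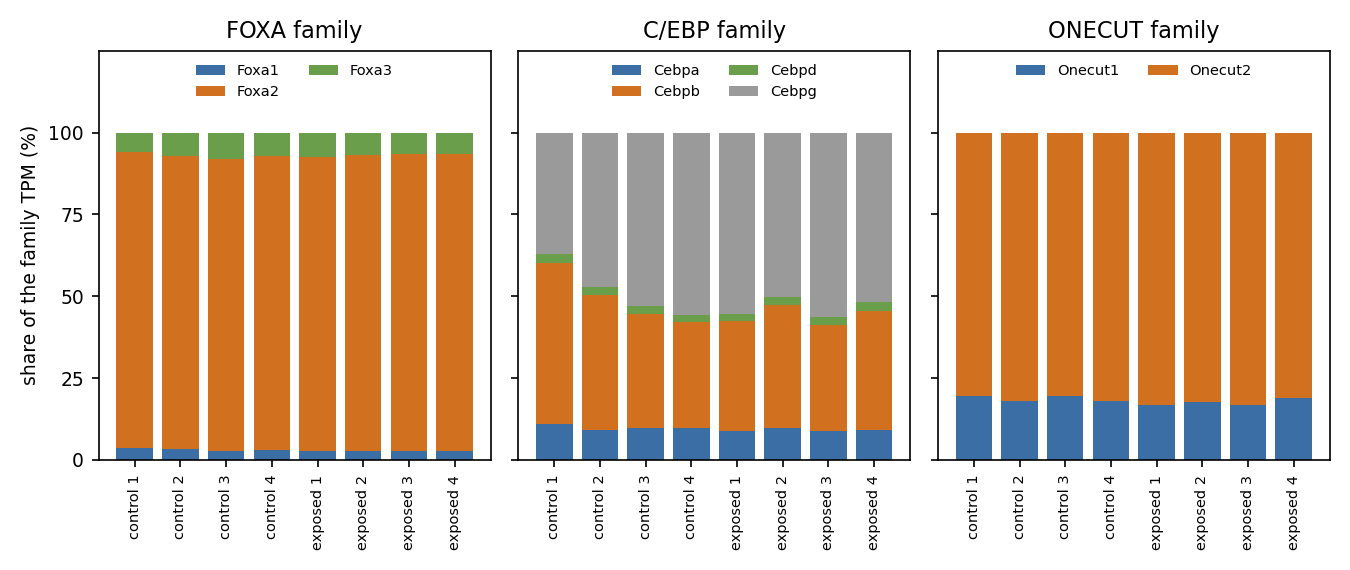
Share of the summed TPM of each family (0 to 100%) that each gene holds, 1 stacked bar per dish, for FOXA, C/EBP and ONECUT genes (the axis label exposed stands for Opti-ELF-WMF dishes). The C/EBP bars hold Cebpa, Cebpb, Cebpd and Cebpg only. Foxa2 fills 89.15% to 90.95% of the FOXA bar over the 8 dishes, and the Cebpb segment is largest in control replicate 1 at 49.4%.

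The second question was what changed after 1 h. Hnf4a had 182.2, 217.9, 202.2 and 189.9 TPM in Opti-ELF-WMF replicates 1 to 4. Exposed replicates 2 and 3 lay above all control dishes and the other two within their range. On the log2(TPM + 1) scale, which is used for every difference here and understates changes of low genes, the difference was 0.08 (standard error 0.05, 95% interval -0.04 to 0.20, adjusted p = 0.538, limma). It was 0.03 without exposed replicate 2 and 0.12 without exposed replicate 1.

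Nr1h4 had 169.1, 167.6, 171.3 and 162.3 TPM in the exposed dishes. The first 3 were above every control dish, and replicate 4 was inside the control range. The difference was 0.06 (standard error 0.03, 95% interval 0.00 to 0.12), with an unadjusted p of 0.0498 and an adjusted p of 0.32 by limma. The median difference over all tested genes was 0.03, and mitochondrial genes held 8.94% ± 0.34 of all TPM in control and 7.04% ± 0.76 in exposed dishes (SD, n = 4 each). After scaling by the median of ratios the difference of Nr1h4 was 0.04, and after rescaling TPM without mitochondrial genes it was 0.03. The unadjusted p of Nr1h4 was under 0.05 in 3 of 16 alternative fits, with a filter of TPM above 0 and without control replicate 4 or exposed replicate 4, and at or above 0.05 in the other 13, both of these scalings included.

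The 3 FOXA genes, whose products open chromatin for the other factors, were next. Foxa2 had 57.9, 65.8, 61.5 and 62.3 TPM in exposed dishes, of which 1 was above every control dish, for a difference of 0.07 (95% interval -0.04 to 0.19, adjusted p = 0.532, limma). It was 0.11 without control replicate 1, 0.05 without control replicate 3 and 0.04 without exposed replicate 2. Foxa3 had 4.86, 4.93, 4.34 and 4.39 TPM, with every dish inside the control range and a difference of 0.01 (95% interval -0.15 to 0.17, adjusted p = 0.979, limma), whose sign turned under each of the 3 other scalings. Foxa1 had 1.87, 2.01, 1.78 and 1.85 TPM, also inside the control range, with a difference of -0.08 (95% interval -0.30 to 0.13, adjusted p = 0.737, limma). It was -0.01 without control replicate 1 and -0.14 without control replicate 3.

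The C/EBP genes had the largest negative differences of the 8. Cebpa, which holds hepatocytes in a differentiated and quiescent state, had 7.35, 8.73, 7.41 and 8.25 TPM in exposed dishes. All 4 lay below the control median and 2 below every control dish. The difference was -0.19 (standard error 0.09, 95% interval -0.39 to 0.02, adjusted p = 0.371, limma), and without control replicate 1 it was -0.10. Cebpb, which responds within hours to inflammation and growth stimuli in liver, had 27.8, 34.1, 27.4 and 33.0 TPM. Each exposed dish was again below the control median, but none was below the lowest control dish. The difference was -0.23 (standard error 0.17, 95% interval -0.62 to 0.16, adjusted p = 0.57, limma), and it was -0.07 without control replicate 1 and -0.36 without control replicate 4. For Cebpb the spread among control dishes was larger than the difference between the conditions.

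Onecut1 had 5.95, 6.94, 6.86 and 7.39 TPM in exposed dishes, 3 of them below every control dish. The difference was -0.12 (standard error 0.07, 95% interval -0.28 to 0.04, adjusted p = 0.458, limma). It was -0.08 without control replicate 3, the highest control dish, and -0.07 without exposed replicate 1, the lowest exposed dish. Over the 8 genes, the dishes of the conditions overlapped for each one, whereas they did not overlap for 9.87% of the tested genes (8.01% higher and 1.86% lower in exposed dishes). The median difference of the 8 was -0.04, with 4 higher and 4 lower, beside 0.03 over all tested genes, of which 7720 were higher and 4402 lower. The interval was narrowest for Nr1h4 and widest for Cebpb.

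**Figure D4:**
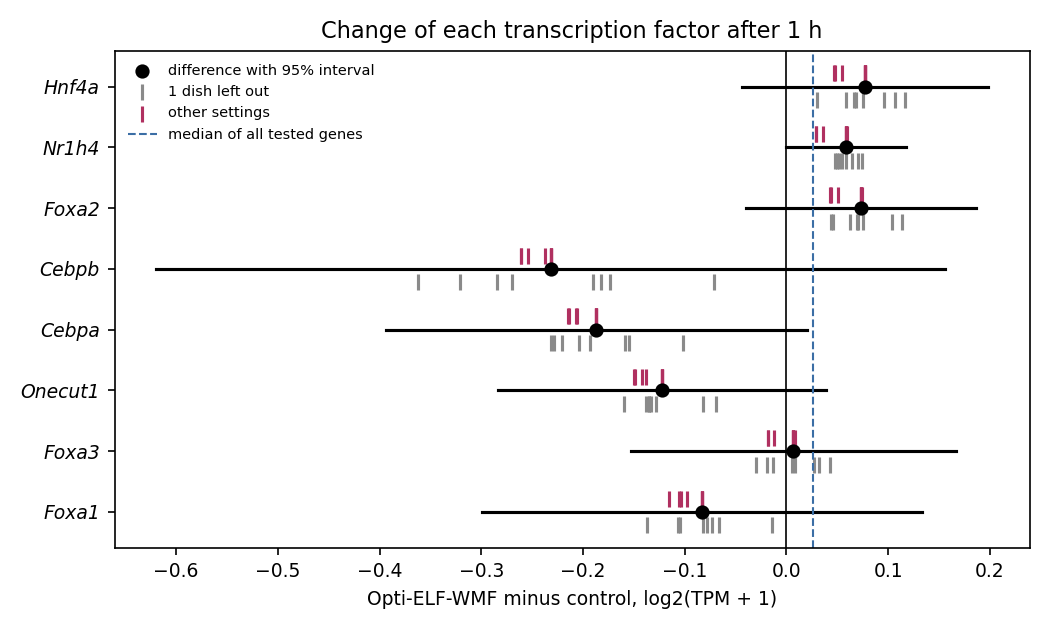
Difference between Opti-ELF-WMF and control dishes on the log2(TPM + 1) scale for the 8 genes (black points) with 95% intervals from limma, above grey ticks for fits without 1 dish and below red ticks for other settings, with a dashed line at the median of all tested genes (0.03). The intervals of 7 genes span 0 and that of Nr1h4 begins at 0.00.

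The lists around the 8 factors gave no adjusted p-value under 0.05 either. Their counts at an unadjusted p under 0.05 stand beside 15.6% of all tested genes (12.0% higher and 3.65% lower), and their dishes without overlap beside 9.87%. All of these are on the deposited TPM, of which mitochondrial genes held 8.94% in control and 7.04% in exposed dishes. After rescaling without mitochondrial genes, 11.3% of all tested genes had such a p and 7.06% had no overlap. The list genes are not given on that scale, so their separations may depend on the scaling. Among the 24 other liver transcription factors tested, 11 were higher and 13 lower (median -0.01). Gata6, a zinc finger factor that acts with FOXA proteins in endoderm, was the 1 with an unadjusted p under 0.05, at 18.1 to 19.1 TPM in control and 17.0 to 18.1 TPM in exposed dishes (difference -0.10, unadjusted p = 0.034 and adjusted p = 0.27, limma). Among 14 hepatocyte products tested, 8 were higher and 6 lower (median 0.04), and 4 of the higher and 2 of the lower ones had an unadjusted p under 0.05, against 12.0% and 3.65% of all tested genes. Krt18 was at 1992 to 2071 TPM and Krt8 at 2305 to 2431 TPM in exposed dishes, each above every control dish on the deposited TPM. Their differences were 0.09 and 0.07 (adjusted p = 0.166 and 0.194, limma). Alb was at 46.1 to 53.0 TPM in exposed dishes, overlapping the control range (difference -0.15, adjusted p = 0.21, limma).

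None of the 7 acute-phase genes tested had an unadjusted p under 0.05, with 3 higher and 4 lower and a median of -0.0004. Of the 9 glucocorticoid-responsive genes, 6 were higher and 3 lower (median 0.04), and 2 of the higher and 1 of the lower ones had an unadjusted p under 0.05, against 12.0% and 3.65% of all tested genes. Mt2 was at 522.9 to 595.9 TPM in exposed dishes (difference 0.15, adjusted p = 0.164, limma). Errfi1, an inhibitor of the EGF receptor, went from 59.6 to 60.7 TPM in control to 62.2 to 63.8 TPM in exposed dishes (difference 0.07, adjusted p = 0.226, limma). Tsc22d3, which encodes the glucocorticoid-induced leucine zipper GILZ, went from 143.2 to 149.0 TPM to 136.7 to 141.0 TPM (difference -0.07, adjusted p = 0.194, limma). On the deposited TPM the dishes did not overlap for Errfi1 and Tsc22d3, as for 9.87% of all tested genes, and overlapped for Mt2.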

How the data were processed

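AML12 cells in 4 control and 4 Opti-ELF-WMF dishes were profiled by the authors with a stranded mRNA kit on an Illumina NovaSeq. TPM was the deposited unit, for 55401 genes in each dish. The submitters' processing notes name Trimmomatic 0.39, STAR 2.7.4a, RSEM 1.3.3 and mm10, and the annotation release and strand setting are not given in the sources used here. Groups and replicate numbers came from the GEO labels. The largest share of equal values between a pair of dishes was 3.79%.

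Genes with TPM of at least 1 in at least 4 dishes were compared on log2(TPM + 1) with limma 3.58.1 (lmFit, then eBayes, variance trend on) run under R 4.3.3, and p-values were adjusted after Benjamini and Hochberg over all 12122 genes. The fit was tested on simulated data. Intervals are limma's 95% intervals. Library depth is unknown, so no detection limit is given. The 8 genes and the lists were chosen with earlier results of these data known. All 8 genes are reported. From each list the text names the 2 genes with the highest control mean and up to 4 with an unadjusted p under 0.05, and cell-type markers where they bear on identity. Abcb11, Cyp7a1, Cyp8b1, Twist1, Prrx1, Cebpd, Cebpg, Ddit3, Onecut2, Trf, Col1a1, Col1a2, Col3a1, Snai1 and Zeb2 were named after their values were seen. Of the genes that the rule names, 1 is not reported here. Gene positions are from GENCODE M21 (GRCm38), and promoter windows from RefSeq (GRCm38.p6), where all 8 genes matched. Motifs were searched on both strands. Alternatives covered the pseudocount, the filter, 3 scalings, the variance trend, the replicate number and leaving out each dish.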

Additional observations from a re-analysis of the deposited data

Results flagged for a closer look

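Onecut1 had 8.20 TPM in control replicate 3, apart from the other 3 control dishes (7.19 to 7.24 TPM) by Dixon's criterion. Of 16 groups of 4 dishes examined over the 8 genes, 1 held such a dish, and chance gives about 1 in 20.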

How the results depend on the processing

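The number of the 8 genes with an adjusted p under 0.05 was 0 in all 16 alternatives (smallest adjusted p 0.238). The number with an unadjusted p under 0.05, 1 on the deposited values, was 0 with a pseudocount of 0.1, with TPM of at least 1 in every sample, with upper-quartile scaling, without the trend and with the replicate block, and from 0 to 3 with 1 dish left out (3 without control replicate 4, and 0 without control replicate 2, control replicate 3 or Opti-ELF-WMF replicate 3). The share of all tested genes with such a p was 15.6% on the deposited values, 9.71% with upper-quartile scaling, 13.8% without control replicate 4 and 12.4% to 16.3% over the fits with 1 dish left out. The gene with such a p also changed, being Cebpa with median-of-ratios scaling, without mitochondrial genes and without Opti-ELF-WMF replicate 2, Foxa2 without control replicate 1, Hnf4a without Opti-ELF-WMF replicate 1, and Cebpa, Cebpb and Nr1h4 without control replicate 4. The number whose dishes did not overlap, 0, ran from 0 to 2 with 1 dish left out (Nr1h4 and Onecut1 without Opti-ELF-WMF replicate 4), where the share of all tested genes was 15.3%, against 9.87% with every dish and 12.5% to 15.9% with 1 left out. Foxa3 turned to -0.012 with median-of-ratios scaling, -0.018 with upper-quartile scaling and -0.018 without mitochondrial genes, and ran from -0.029 to 0.043 with 1 dish left out. The other 7 genes kept their sign in every alternative. Causes were not tested. Same-numbered dishes did not deviate together (correlations from -0.042 to 0.026), and the block changed no other call. Of all genes with an unadjusted p under 0.05, 76.6% were higher on the deposited values, 55.2% with median-of-ratios scaling, 40.9% with upper-quartile scaling and 50.6% without mitochondrial genes. The median of all genes moved from 0.026 to 0.0050, -0.0022 and -0.0018 in the same order. Over all genes, the number with an adjusted p under 0.05 was 0 on the deposited values, 1 with each of the 3 scalings, without the trend and with TPM of at least 1 in every sample, and up to 6 with 1 dish left out (6 without Opti-ELF-WMF replicate 2). TPM holds no depth, which limits what can be said of the lowest genes, Foxa1 and Foxa3.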

Other observations

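Repressors of the epithelial program oppose HNF4A in liver cells, and 5 of the 7 listed passed the filter. Snai2 had 17.0 to 20.1 TPM in control dishes and 19.6 to 21.6 TPM in exposed dishes (difference 0.14, unadjusted p = 0.0348 and adjusted p = 0.274, limma). Zeb1 had 13.5 to 15.2 TPM in control dishes and 13.8 to 20.01 TPM in exposed dishes (difference 0.20, adjusted p = 0.355, limma). Twist1 and Prrx1 stayed under 1 TPM in every dish. Of the 5, 3 were higher and 2 lower, with a median of 0.04. The 2 lower ones were Snai1 (difference -0.17, adjusted p = 0.458, limma) and Zeb2 (difference -0.20, adjusted p = 0.622, limma). Snai2 alone had an unadjusted p under 0.05 on the deposited TPM. Such a p was found for 15.6% of all tested genes, with 12.0% higher in exposed dishes.

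The genes whose pattern over the 8 dishes lay closest to each factor were found by the root-mean-square difference of log2(TPM + 1) after centring each gene on its own mean. Igf2bp2 and Drg1 were closest to Nr1h4 (0.0080 and 0.014, where Nr1h4 itself varied by 0.040), Cep76 and Pknox1 to Hnf4a (0.0265 and 0.0266 of 0.087), and Med30 and Sod2 to Foxa2 (0.027 and 0.030 of 0.079). Lpin3 and Usp35 were closest to Cebpa (0.051 and 0.054 of 0.16), Gm47283 and Tmem238 to Cebpb (0.080 and 0.099 of 0.29), and Plxnb1 and Uck1 to Onecut1 (0.027 and 0.033 of 0.11). Cd320 and Arhgef10l were closest to Foxa3 (0.025 and 0.028 of 0.073), and Mcl1 and Trappc6a to Foxa1 (0.049 and 0.050 of 0.11). With 12122 genes and 8 dishes, such closeness is a description of these dishes only.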
